A study of Mus musculus with 2 samples.

Results

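Cytochrome P450 families 1 to 4 were followed in the whole colon of mice without EP4, the prostaglandin E2 receptor encoded by Ptger4, in the epithelium. The members were all genes whose symbol is Cyp1, Cyp2, Cyp3 or Cyp4 followed by a subfamily letter and a number, found through the RefSeq accession that the array gives for each probe. By this rule 77 of the 22909 genes named on the arrays were members, with 95 of the 56593 gene probes, and 15 members had more than 1 probe. The rule named 81 genes in the RefSeq annotation, and Cyp2j7, Cyp2j12, Cyp3a41b and Cyp4a32 had no probe through which they could be named. No measured value entered the rule.

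The study compared control Villin-Cre mice with EP4 conditional knockout mice (Villin-Cre; EP4flox/flox, called EP4 cKO), both of the C57BL/6 strain and, by the methods, 8 weeks old. Both groups carried Villin-Cre, in which the Villin promoter drives the Cre recombinase in intestinal epithelium, so the other cells of the EP4 cKO colon keep an intact Ptger4 gene. RNA of each genotype was combined from 3 pools of colon and read on 1 Agilent array, labelled with Cy3, and both arrays lay on the same slide. With 1 array per genotype there was no spread between replicates, no test was possible, and every difference below compares these 2 arrays.

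Cytochrome P450 enzymes are heme proteins of the endoplasmic reticulum and mitochondria that insert 1 atom of oxygen into their substrate, with electrons passed on by a reductase. Families 1 to 3 are best known for oxidising drugs, plant compounds and pollutants that arrive with food, and several of them, with family 4, also oxidise the body's own fatty acids, among them arachidonic acid and its products, the prostaglandins and leukotrienes. Many of these genes are controlled by ligand-activated receptors, the aryl hydrocarbon receptor (Ahr) for family 1, CAR (Nr1i3) and PXR (Nr1i2) for Cyp2b, Cyp2c and Cyp3a genes, and PPARalpha (Ppara) for Cyp4a genes. The colon epithelium, which lies next to the microbiota, expresses its own set of these enzymes, smaller than that of the liver.

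Values are normalized signals, in arbitrary units, of the brightest probe of each gene, after each array was scaled to a trimmed mean of 2500. The log2 ratio is EP4 cKO over Villin-Cre, and a gene was counted as higher or lower past a 2-fold change. A probe that the scanner software marked well above background on only 1 array has a bound instead, with the dim array set at the lowest signal it still marked so (125 in Villin-Cre, 57.8 in EP4 cKO) or at the probe's own signal where that was higher. A bound that did not exceed 1-fold was held at a log2 ratio of 0. Genes called on both arrays or on neither are those well above background there. Signals are compared only between arrays and not between genes, since each probe has its own brightness.

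Of the 95 member probes, 41 stood well above background on both arrays, 1 more did so in Villin-Cre alone and 7 more in EP4 cKO alone, and 46 did so on neither. That is 42 probes in Villin-Cre and 48 in EP4 cKO. The whole array moved the same way, with 45.4% of all gene probes well above background in Villin-Cre and 51.6% in EP4 cKO. By brightest probe, 37 genes stood above background on both arrays, 7 in EP4 cKO alone (44 in all) and 1 in Villin-Cre alone (38 in all), which left 32 genes undetected. The precision of a single spot was read from 252 probes with 10 spots each, whose ratio had a median SD of 0.062 on the log2 scale, rising to 0.22 over the 5 of them with signals under 1000. This error covers the spot only and holds nothing of the spread between mice.

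Of the 45 members with a value, 2 were more than 2-fold higher in EP4 cKO (Cyp4f14 and Cyp3a13), against 4.89% of the 14668 genes with a value, and 6 were more than 2-fold lower (Cyp2c55, Cyp2f2, Cyp2t4, Cyp2r1, Cyp2d22 and, by its bound, Cyp2b23), against 7.98%. That is 4.44% and 13.3% of the members. Among the 37 members on both arrays, 2 were higher (5.41%, against 4.05% of the 12808 genes on both arrays) and 5 were lower (13.5%, against 6.26%). The median log2 ratio was 0 over the members with a value and -0.10 over all genes with a value. With 20 members above 0, 21 below and 4 held at 0, the member median is a value held at 0 and not a measured ratio. Over the members on both arrays the median was -0.17, where all genes had -0.15. The split moved with the scaling, for the members and for all genes alike. With each array scaled to its 75th percentile, 5 members were higher and 5 lower, against 6.42% and 6.28% of all genes. With a trimmed mean over all spots, 4 were higher and 5 lower, against 6.1% and 6.59%. After normexp background correction and quantile normalization, 2 were higher and 3 lower, against 4.13% and 2.69%, and after loess 6 were higher and 4 lower, against 7.8% and 4.96%. With the spots of the E1A control transcripts as the reference, a scaling added after the data were seen, 20 were higher and 1 lower, against 29.5% and 2.6%. The first 4 of these raised the median of all genes by 0.10 to 0.13, and the E1A scaling raised it by 0.83. The E1A scaling adds 0.90 to the log2 ratio of every gene on both arrays, so that ratios between -0.90 and 0 turn positive under it and many ratios above 0 pass 2-fold. With the scaling as reported, 9 members were higher and 11 lower past 1.5-fold, against 9.87% and 18.7% of all genes, and 1 was higher and 2 lower past 3-fold, against 2.22% and 3.74%. With no filter on background, 5 of 77 members were higher and 29 lower, against 5.12% and 31.7%, and with all probes of a gene averaged 2 were higher and 6 lower, against 4.57% and 8.14%.

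**Figure D1:**
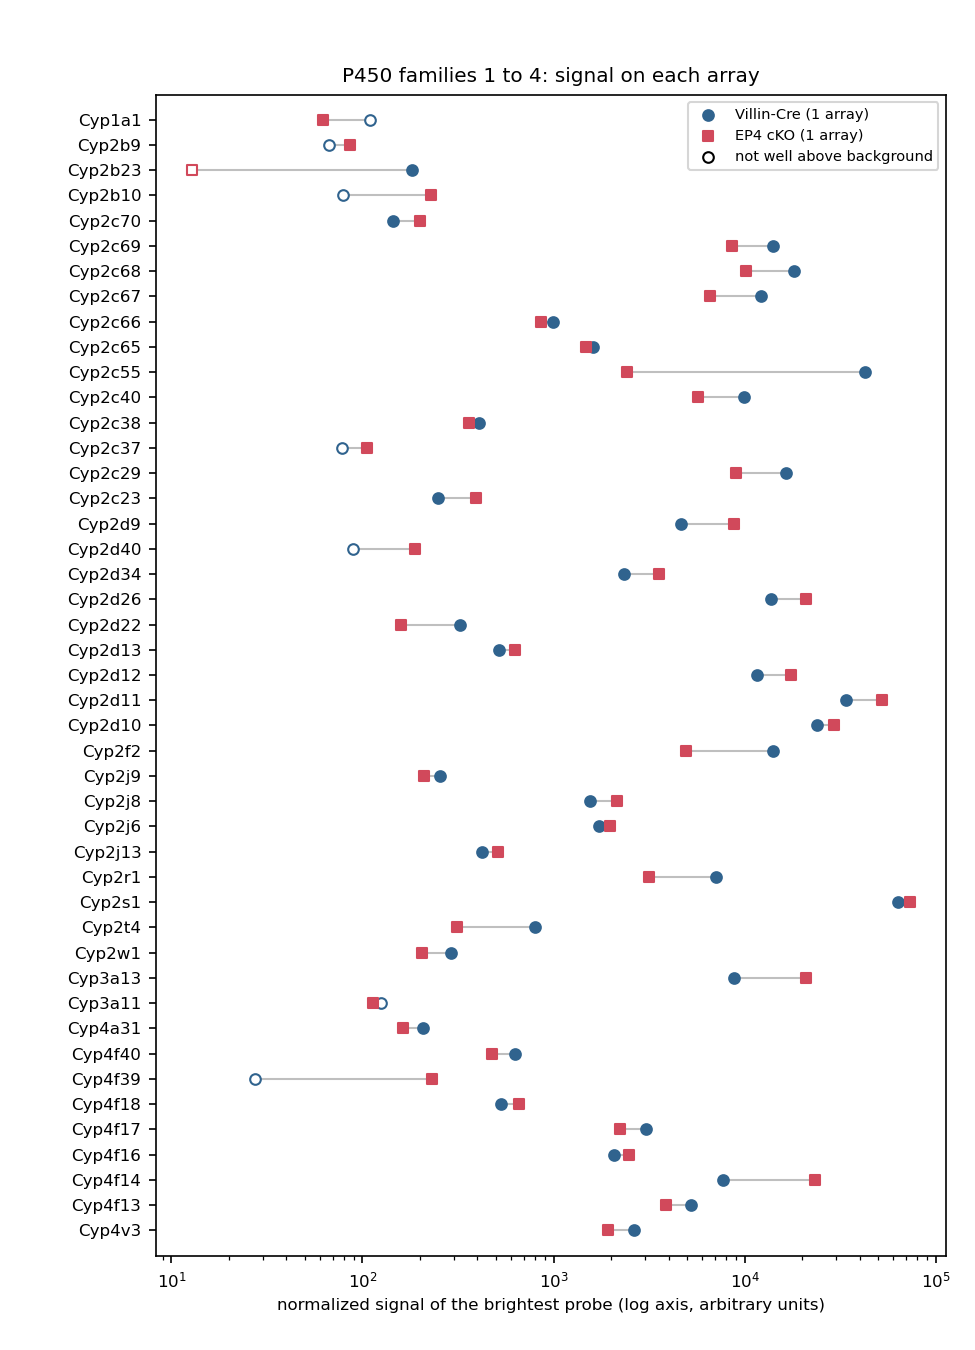
Normalized signal (log axis, arbitrary units) of the brightest probe of each of the 45 P450 genes well above background on at least 1 array, with Villin-Cre as circles and EP4 cKO as squares, 1 array each, and open symbols for signals not well above background. The longest line between filled symbols belongs to Cyp2c55, at 42911 in Villin-Cre and 2412 in EP4 cKO, and Cyp4f14 and Cyp3a13 lie to the right in EP4 cKO by more than 2-fold.

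Cyp2c55 had the lowest ratio of all members with a value. This enzyme of colon and other extrahepatic epithelia oxidises arachidonic acid to hydroxy acids and is among the genes that CAR and PXR activate. It read 42911 in Villin-Cre and 2412 in EP4 cKO, a log2 ratio of -4.15, or 17.8-fold lower. Its other probe read 15699 and 1172, a log2 ratio of -3.74, so that both probes fell by a similar factor from a signal far above background. Of the 12808 genes on both arrays, 14 had a lower ratio, and of the 14668 genes with a value, bounds included, 43 did. Over all the settings tried, E1A scaling included, the Cyp2c55 ratio lay between -4.15 and -3.26.

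The bases before the outermost annotated start of the gene are shown for the member with the largest fall, from RefSeq (GRCm38.p6, chr19:39006769-39006939, plus strand), in lower case with any match to a searched motif in capitals. The motifs were AGGTCA, the half-site that PXR, CAR and related nuclear receptors bind, GCGTG, the core that the aryl hydrocarbon receptor binds, and TATAAA, the TATA box, searched on both strands. None of them matched in these 171 bases.
Cyp2c55: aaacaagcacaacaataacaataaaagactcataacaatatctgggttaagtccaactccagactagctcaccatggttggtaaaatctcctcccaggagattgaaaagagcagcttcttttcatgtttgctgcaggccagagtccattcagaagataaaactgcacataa

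The rest of the Cyp2c subfamily, which includes the epoxygenases that turn arachidonic acid into epoxides, was measured by 10 more genes on both arrays. Cyp2c55 lies at the end of the Cyp2c gene cluster on chromosome 19, and its neighbours in the cluster, Cyp2c65 and Cyp2c66, stayed within 2-fold. Cyp2c65 read 1603 in Villin-Cre and 1476 in EP4 cKO, a log2 ratio of -0.12. Cyp2c66 read 999 and 859, a ratio of -0.22. The fall of Cyp2c55 was not shared by the genes beside it, and the small ratios of Cyp2c65 and Cyp2c38 changed sign under some of the other scalings.

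Cyp2c29 and, further along the cluster, Cyp2c67, Cyp2c68, Cyp2c40 and Cyp2c69 had ratios within a narrow range below 0, each short of 2-fold. Between Cyp2c29 and the rest lie Cyp2c39, undetected on both arrays, and Cyp2c38, with a ratio of -0.17. Cyp2c29, which with Cyp2c55 is known as a target of CAR and PXR, read 16401 in Villin-Cre and 9030 in EP4 cKO, a ratio of -0.86. Cyp2c67 read 12168 and 6558, a ratio of -0.89, and Cyp2c68 read 18074 and 10134, a ratio of -0.83. Cyp2c40, which makes hydroxylated arachidonic acid in the gut, read 9946 and 5719, a ratio of -0.80. Cyp2c69 read 14126 and 8611, a ratio of -0.71. These genes are close relatives of one another, the probe sequences were not used here, and a probe may read more than 1 of them, so the 5 ratios cannot be taken as 5 separate measurements. In the windows that RefSeq gives around their starts, which are not the stretches the probes read, the pairs among these 5 genes ranged from 48.9% identical (Cyp2c29 and Cyp2c40) to 91.1% (Cyp2c68 and Cyp2c69).

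The other Cyp2c genes stayed within 2-fold or had no fold to give. Cyp2c38 read 407 in Villin-Cre and 362 in EP4 cKO, a ratio of -0.17. Cyp2c70, the enzyme that makes muricholic bile acids in mouse liver, read 144 and 200, a ratio of 0.48, and Cyp2c23, an epoxygenase of the kidney that lies apart from the cluster, read 247 and 393, a ratio of 0.67. Both were among the dim probes, where the spot error was largest. Cyp2c37 was well above background on the EP4 cKO array only (78.3 and 106) with no fold to give, and Cyp2c39, Cyp2c50 and Cyp2c54 were on neither. In all, 9 of 11 Cyp2c genes on both arrays had a ratio below 0, as did 63.0% of all genes on both arrays, with a median of -0.71, and 7 or 8 of 11 did so under the 4 planned scalings, but only 1 of 11, Cyp2c55, under the E1A scaling.

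The Cyp2d genes, a large cluster on chromosome 15 whose human counterpart CYP2D6 oxidises many amine drugs, mostly had ratios above 0. Among the Cyp2d genes on both arrays, Cyp2d9 had the highest ratio, at 4660 in Villin-Cre and 8790 in EP4 cKO, a log2 ratio of 0.92. Cyp2d11 read 34163 and 52691, a ratio of 0.63, and Cyp2d12 read 11690 and 17438, a ratio of 0.58. None of these reached 2-fold as reported. Cyp2d9 did so under the 75th percentile, all-spot, loess and E1A settings, and Cyp2d11 and Cyp2d12 under the E1A setting.

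Cyp2d34 read 2327 in Villin-Cre and 3551 in EP4 cKO, a ratio of 0.61. Cyp2d10 read 23898 and 29332, a ratio of 0.30, and Cyp2d13 read 516 and 630, a ratio of 0.29. Cyp2d26 read 13700 and 21053, a ratio of 0.62, but its other probe read 11230 and 11419, a ratio of 0.02, and its probes therefore disagreed. Cyp2d40 was well above background in EP4 cKO only, at 88.7 and 187, at least 1.49-fold higher, a bound that passed 2-fold under the loess and E1A settings. The Cyp2d genes too are close relatives, and the same doubt about shared signal holds for their probes.

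Cyp2d22, at the edge of the same cluster, went the other way. This gene, held to be the closest mouse counterpart of CYP2D6, read 323 in Villin-Cre and 159 in EP4 cKO, a ratio of -1.02, barely past 2-fold and from a dim probe. It was short of 2-fold under each other scaling tried, with ratios from -0.90 to -0.12. Of the 8 Cyp2d genes on both arrays, 7 had a ratio above 0 with the scaling as reported, with a median of 0.59. So did 37.0% of all genes on both arrays. After normexp and after loess, which shift ratios unequally, the count was again 7. The percentile, all-spot and E1A scalings add a constant above 0 to every ratio, so these 7 could not fall below 0 there. Under E1A the median of all genes on both arrays was itself 0.75, against -0.15 as reported.

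**Figure D2:**
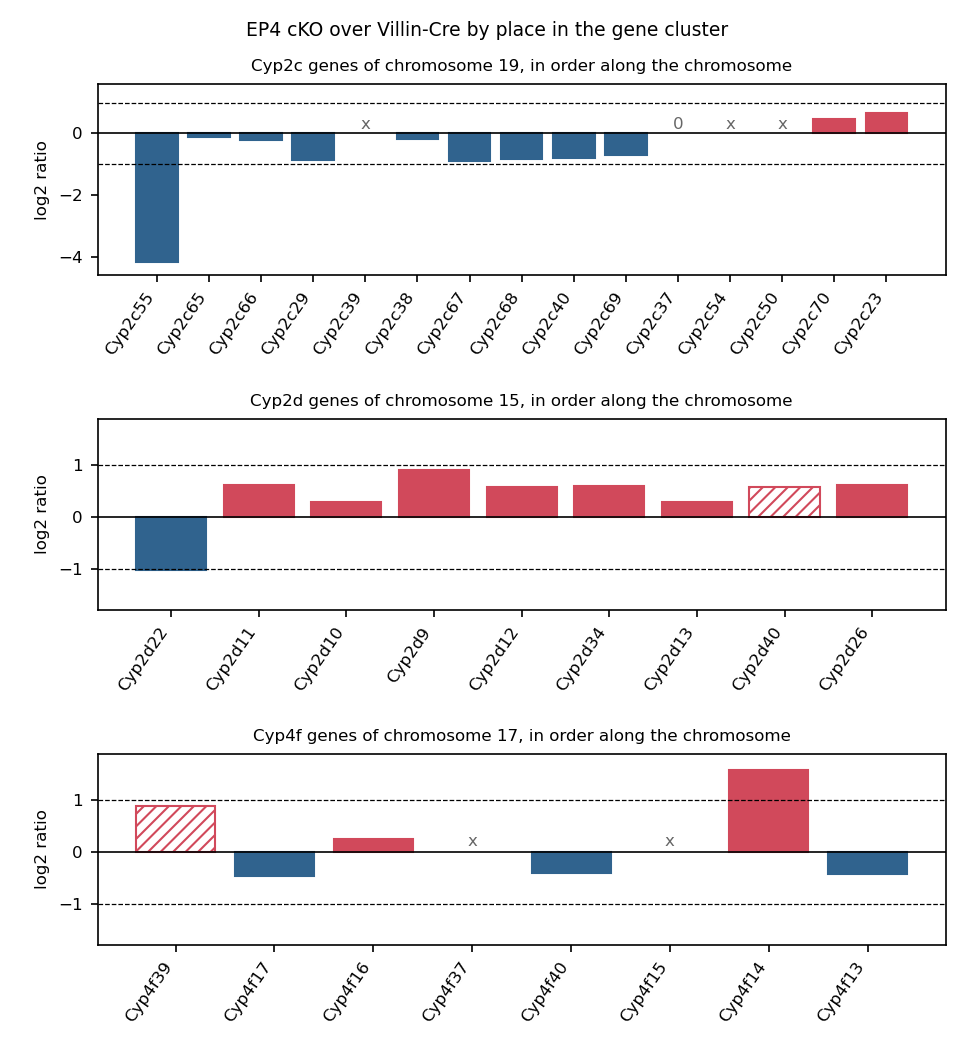
Log2 ratio (EP4 cKO over Villin-Cre, 1 array each) of the Cyp2c, Cyp2d and Cyp4f genes in their order along chromosomes 19, 15 and 17, with dashed lines at 2-fold, hatched bars for bounds, an x for genes not well above background on either array and a 0 for ratios held at 0. Cyp2c55 stands alone at -4.15 at one end of its cluster, the Cyp2d bars point upward except for Cyp2d22, and Cyp4f14 stands above its neighbours at 1.59.

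On chromosome 7, Cyp2f2 and Cyp2t4, between which the annotation lists 0 other genes, both fell past 2-fold. Cyp2f2, known from the club cells of the airway, where it activates naphthalene, read 14124 in Villin-Cre and 4942 in EP4 cKO, a log2 ratio of -1.52, or 2.86-fold lower. Cyp2t4, whose substrates are not well known, read 798 and 311, a ratio of -1.36. Of the 12808 genes on both arrays, 274 had a lower ratio than Cyp2f2. The Cyp2f2 ratio stayed past 2-fold under each setting except the E1A scaling (-0.62), while Cyp2t4 was short of 2-fold after normexp and quantile normalization (-0.63) and under the E1A scaling (-0.46).

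These neighbours moved together, and the bases before their starts are shown for that reason (RefSeq, GRCm38.p6, chr7:27119705-27119954 and chr7:27153464-27153713, both plus strand). The capitals mark AGGTCA, 221 bases before the start on the plus strand in Cyp2f2 and 145 bases before it on the minus strand, read here as TGACCT, in Cyp2t4. Shares were counted over the full 250 bases before the window's start site, which for some genes reach past the outermost annotated start where the printed bases end. AGGTCA was found there in 13.8% of 27025 genes with a RefSeq window and in 16 of the 62 members with one (25.8%). TATAAA was found in 3504 of the 27025 and in 24 of the 62 (38.7%), and GCGTG in 28.2% and 17.7%. A match of this length is a description of the sequence and not a sign that a factor binds there.
Cyp2f2: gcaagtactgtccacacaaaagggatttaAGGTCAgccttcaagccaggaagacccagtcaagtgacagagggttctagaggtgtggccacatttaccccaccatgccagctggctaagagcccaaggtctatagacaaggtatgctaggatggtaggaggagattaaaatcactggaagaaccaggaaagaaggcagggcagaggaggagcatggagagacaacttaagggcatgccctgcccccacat
Cyp2t4: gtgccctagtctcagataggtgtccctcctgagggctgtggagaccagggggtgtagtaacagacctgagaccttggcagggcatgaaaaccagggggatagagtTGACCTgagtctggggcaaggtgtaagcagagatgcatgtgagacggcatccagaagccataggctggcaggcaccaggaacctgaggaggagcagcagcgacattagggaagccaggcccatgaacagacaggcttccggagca

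Cyp2r1, also on chromosome 7, encodes the main vitamin D 25-hydroxylase. It read 7074 in Villin-Cre and 3157 in EP4 cKO, a ratio of -1.16, and stayed past 2-fold under each setting except the E1A scaling (-0.27). Vdr, the vitamin D receptor, which is on the list of sensors below, read 30388 and 38743, a ratio of 0.35. Cyp2s1, an epithelial P450 that dioxin induces, gave bright and nearly equal signals of 63374 and 73365, a ratio of 0.21. Cyp2w1, known from fetal gut and colon tumours, was dim, at 290 and 205, a ratio of -0.50 that shrank to -0.12 after normexp and turned positive under the E1A scaling.

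The Cyp2b genes, of which Cyp2b10 is the textbook target of CAR, were at the limit of detection. Cyp2b10 read 78.9 in Villin-Cre, not well above background, and 229 in EP4 cKO, at least 1.82-fold higher, but its other probe was on neither array, at 28.2 and 13.8. The bound passed 2-fold under the 75th percentile, loess and E1A settings. Cyp2b9 read 66.7 and 85.8, well above background in EP4 cKO only and with no fold to give. Cyp2b23 went the other way, at 182 in Villin-Cre and 12.8 in EP4 cKO, at least 3.14-fold lower, and its bound was short of 2-fold after normexp (-0.49), after loess and under the E1A scaling. Cyp2b13 and Cyp2b19 were on neither array.

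In the Cyp2j subfamily, which also epoxidises arachidonic acid, all ratios lay within 2-fold. Cyp2j8 read 1547 in Villin-Cre and 2158 in EP4 cKO, a ratio of 0.48, and Cyp2j13 read 420 and 513, a ratio of 0.29. Cyp2j6, an intestinal member, read 1723 and 1987, a ratio of 0.21, but its dimmer probe gave -0.39. Cyp2j9 read 256 and 210, a ratio of -0.28, whose sign turned after normexp, after loess and under the E1A scaling. Cyp2j5 and Cyp2j11 were on neither array. Over the 21 genes of subfamilies 2c and 2j together, only some of them epoxygenases, 16 had a value, 0 were more than 2-fold higher and 1, Cyp2c55, was lower, with a median of -0.19, a count near the shares of all genes (4.89% and 7.98%).

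Family 1, the classical targets of the aryl hydrocarbon receptor, was near background. Cyp1a1 read 109 in Villin-Cre and 62.2 in EP4 cKO, and only the second was well above the background of its array, so that no fold could be given. Cyp1a2 and Cyp1b1 did not stand out from background on either. The same held for the 4 Cyp2a genes and for Cyp2e1, the ethanol-oxidising enzyme, Cyp2g1 and Cyp2u1.

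Of the 8 Cyp3a genes, the main drug-oxidising subfamily of liver and gut, Cyp3a13 was the only one well above background on both arrays. Cyp3a13, the form known from the mouse intestine, rose from 8794 in Villin-Cre to 21047 in EP4 cKO, a log2 ratio of 1.26, or 2.39-fold higher. Of the 12808 genes on both arrays, 353 had a higher ratio. Cyp3a11, the main hepatic form, read 125 and 114, with only the second well above background, and the other 6 were on neither array. Cyp3a13 and Cyp2c55, both of them listed as targets of CAR and PXR, moved in opposite directions. Over the 10 genes of that list, 6 had a value, with 1 higher and 1 lower (against 4.89% and 7.98% of all genes) and a median of 0, where 2 of the 6 were held at 0. The 3 of them on both arrays had a median of -0.86.

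Family 4 holds the omega-hydroxylases, which oxidise the end of the chain of fatty acids and inactivate leukotriene B4. Cyp4f14, which acts on leukotriene B4 and on vitamin E, rose from 7731 in Villin-Cre to 23246 in EP4 cKO, a log2 ratio of 1.59, or 3.01-fold higher. Of the 12808 genes on both arrays, 211 had a higher ratio, and over all settings the Cyp4f14 ratio lay between 1.57 and 2.48. Its neighbour Cyp4f13, with 0 annotated genes between them, read 5244 and 3879, a ratio of -0.44, so the pair did not move together.

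Cyp4f14 had the largest rise of the members on both arrays, and the bases before its start are shown from RefSeq (GRCm38.p6, chr17:32917377-32917606, minus strand, written 5′ to 3′ along the gene). Cyp4f39, which could only be bounded, was higher than Cyp4f14 after loess (1.75 against 1.63). The capitals mark GCGTG on the opposite strand, read here as CACGC, 217 bases before the start.
Cyp4f14: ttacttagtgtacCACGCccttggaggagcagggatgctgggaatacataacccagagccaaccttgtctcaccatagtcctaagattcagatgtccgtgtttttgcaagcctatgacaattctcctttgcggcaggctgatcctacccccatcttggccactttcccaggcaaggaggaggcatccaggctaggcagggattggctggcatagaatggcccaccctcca

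The other Cyp4f genes stayed within 2-fold or could only be bounded. Cyp4f18, the leukotriene B4 hydroxylase of neutrophils, read 529 in Villin-Cre and 658 in EP4 cKO, a ratio of 0.31. Cyp4f16 read 2082 and 2477, a ratio of 0.25, with 0.13 from its other probe. Cyp4f17 read 3062 and 2218, a ratio of -0.47, and Cyp4f40 read 632 and 478, a ratio of -0.40. These 2 were below 0 while Cyp4f16 and Cyp4f18 were above it, and the ratios of Cyp4f13, Cyp4f17 and Cyp4f40 turned positive under the E1A scaling.

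Cyp4f39, whose human counterpart makes the very long omega-hydroxy fatty acids of the skin barrier, read 27.2 in Villin-Cre, at background, and 231 in EP4 cKO, at least 1.84-fold higher, a bound that passed 2-fold under the 75th percentile, all-spot, loess and E1A settings. Cyp4v3, the counterpart of a gene of human retinal disease, read 2644 and 1936, a ratio of -0.45. Cyp4a31 was the only one of 7 Cyp4a genes above background, at 208 and 164, a ratio of -0.35 that turned positive after loess (0.12) and under the E1A scaling, and neither Cyp4a10 nor Cyp4a14, the textbook targets of PPARalpha, was detected on either array. Cyp4b1, Cyp4x1, Cyp4f15 and Cyp4f37 were on neither array. Of the 19 genes of family 4, 9 had a value, with 1 higher, 0 lower and a median of -0.35, a count near the shares of all genes (4.89% and 7.98%).

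**Figure D3:**
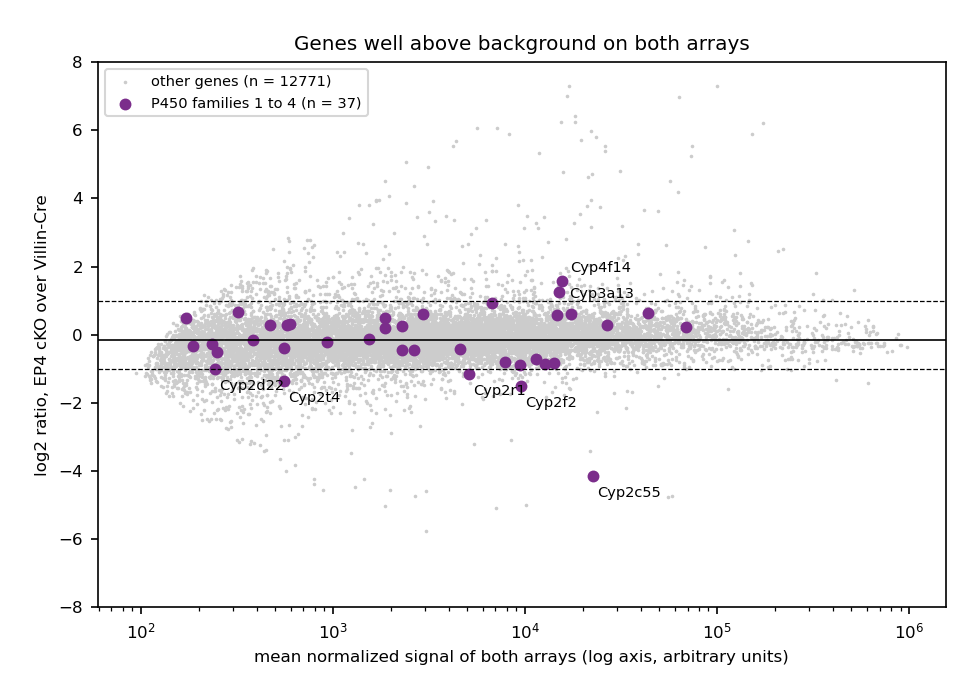
Log2 ratio (EP4 cKO over Villin-Cre) against the mean normalized signal of both arrays (log axis, arbitrary units) for the genes well above background on both arrays, 37 P450 genes in purple and the others in grey, with a solid line at the median of all genes (-0.15) and dashed lines at 2-fold. Cyp2c55 lies far below the cloud at -4.15. The cloud widens toward dim signals, where Cyp2t4 (-1.36) and Cyp2d22 (-1.02) lie.

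The receptors that control these enzymes and the proteins that supply them were read on the same arrays. Of the 15 sensors and partners, 14 had a value, with a median of 0.18. Of these, 0 passed 2-fold in either direction, against 4.89% higher and 7.98% lower over all genes. A list of 14 genes is too short to set a count of 0 apart from these shares. Nr1i2 (PXR) read 11783 in Villin-Cre and 8489 in EP4 cKO, a ratio of -0.47, and Nr1i3 (CAR) read 871 and 1234, a ratio of 0.50, with its other probe above background in EP4 cKO only (43.2 and 65.4). Ahr read 1957 and 1615, a ratio of -0.28, and Ppara read 2526 and 1523, a ratio of -0.73, with -0.64 from its other probe. The ratios of these receptors had both signs, all within 2-fold. Por, the reductase that feeds electrons to every microsomal P450, read 23959 and 40432, a ratio of 0.75. Of the 8 electron donors and membrane partners, 0 passed 2-fold, against the same shares of all genes and from a still shorter list.

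Among 16 epoxide hydrolases and eicosanoid enzymes, 13 had a value, 0 were higher and 1 was lower, near the shares of all genes (4.89% and 7.98%). The median of 0 was a value held at 0. The lower one was Ptgis, the prostacyclin synthase, at 254 in Villin-Cre and 107 in EP4 cKO, a ratio of -1.25. Alox5 was just short of a call, at 45.2 in Villin-Cre, not well above background, and 249 in EP4 cKO, at least 1.98-fold higher. Of the 9 genes of heme synthesis, against the same shares, 0 were higher and 1 was lower, Alas2, the erythroid form of the first enzyme, at 506 and 13.9, at least 8.75-fold lower. Its counterpart outside red cells, Alas1, read 44633 and 53451, a ratio of 0.26. None of the 4 genes of heme breakdown passed 2-fold, against the same shares and from a shorter list.

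**Figure D4:**
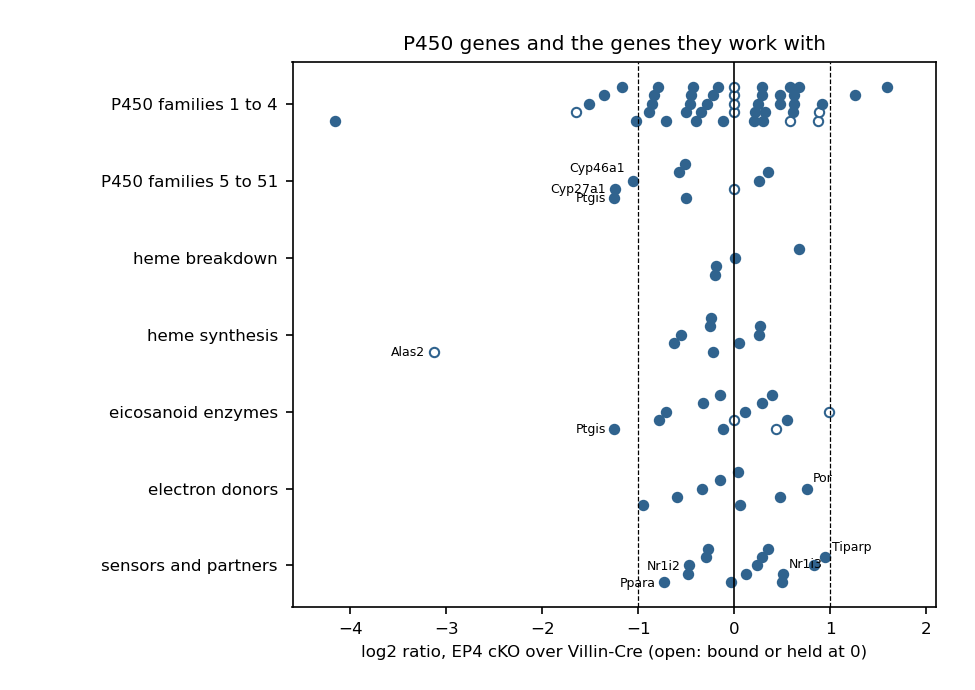
Log2 ratio (EP4 cKO over Villin-Cre, 1 array each) of the P450 genes of families 1 to 4 and of 6 lists of genes they work with, 1 point per gene with a value, open where the value is a bound or was held at 0, with dashed lines at 2-fold. The sensors, electron donors and heme breakdown genes lie within 2-fold, and Alas2, Ptgis, Cyp27a1 and Cyp46a1 lie below it.

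The targeted gene and the makeup of the tissue were read on the same arrays. Ptger4 read 6227 in Villin-Cre and 5661 in EP4 cKO, a ratio of -0.14, and its other probe gave 0.59, so the deletion was not seen in whole colon at these probes, whose place relative to the deleted part is not given in the sources used here. The paper reports the loss of EP4 by qRT-PCR in isolated colon crypts, a different sample from the whole colon read here. All 11 epithelial markers were well above background on both arrays, with a median ratio of 0.10, a summed signal of 2621310 in Villin-Cre and 3065950 in EP4 cKO, and only Krt20, a keratin of the surface epithelium, past 2-fold (146575 and 510711, a ratio of 1.80). The 3 Hox genes of group 13, which mark the distal gut, stayed within 2-fold.

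Markers of connective tissue were much lower in EP4 cKO. Of 7 fibroblast markers, 6 had a value and all 6 were more than 2-fold lower in EP4 cKO, with a median of -4.66 and a summed signal of 13311 in Villin-Cre and 404 in EP4 cKO. Dcn read 6006 and 110, a ratio of -5.77, and Col1a2 read 3613 and 111, a ratio of -5.03. Col1a1 (1313 and 13.8), Col3a1 (1621 and 39.9) and Lum (515 and 14.8) could only be bounded, Fbln1 read 243 and 114, and Pdgfra was on neither array. Their part in the P450 differences was not tested, and in bulk tissue fewer cells of a type and less RNA per cell cannot be told apart.

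The sums add probes of unequal brightness and so follow the brightest probe of each list. Of the other marker lists, smooth muscle had 1 of 5 genes with a value lower (Cnn1, 479 and 72.3), a median ratio of 0.38 and a summed signal of 30049 in Villin-Cre and 45462 in EP4 cKO, with Acta2, Actg2 and Tagln above 0 within 2-fold, with Myh11 on neither array. Leukocytes had 1 of 7 higher (Itgax, 152 and 505) and sums of 60193 and 80858, which follow Itgam (49347 and 68598), and a median ratio of 0.18, with Cd79a, Lyz2 and Adgre1 on neither array. Hepatocyte markers, listed because most of these Cyp genes are best known from the liver, had 1 of 7 higher (Tat, 853 and 2861) a median of 0.26 and sums of 24752 and 23711, with Alb at 275 and 161 and Apoa1, Fgb and Ahsg on neither array. Of the 5 endothelial and the 5 adipocyte markers, 2 and 1 were above background and 0 passed 2-fold. All these marker counts stand against 4.89% higher and 7.98% lower over all genes.

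**Figure D5:**
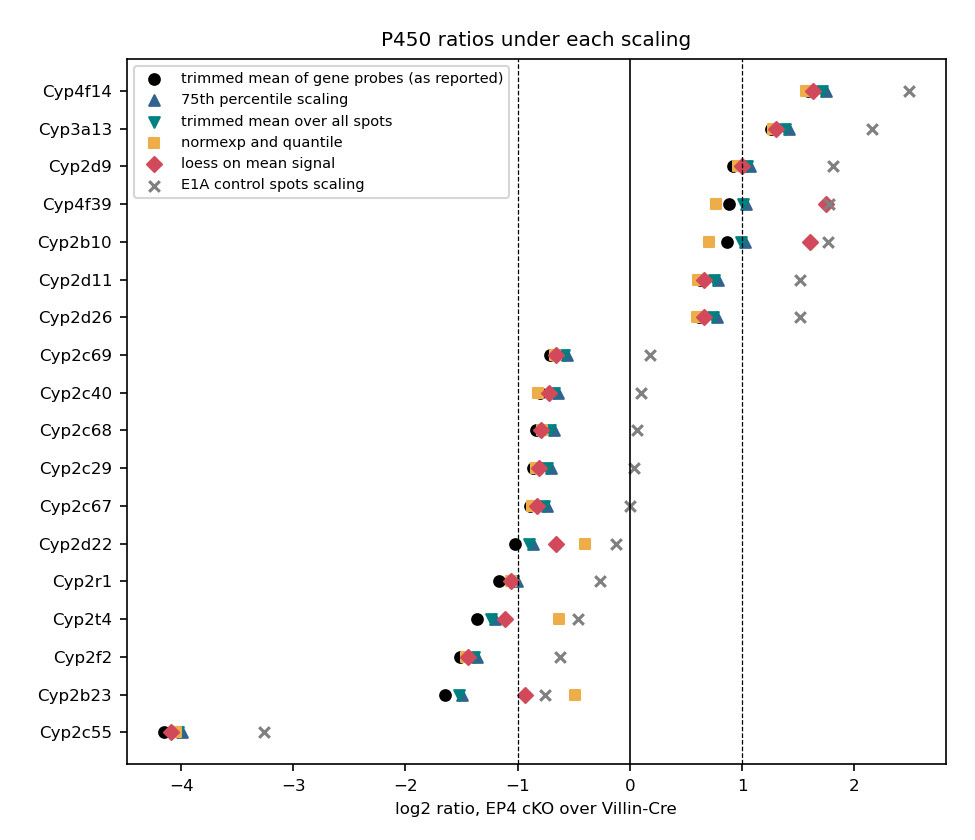
Log2 ratio (EP4 cKO over Villin-Cre, 1 array each) of 18 P450 genes under the scaling reported here and under 5 others, with dashed lines at 2-fold. Cyp2c55 stays between -4.15 and -3.26, Cyp4f14 and Cyp3a13 stay above 1 throughout, and the E1A scaling shifts every gene upward, which brings Cyp2c29, Cyp2c40, Cyp2c67, Cyp2c68 and Cyp2c69 to between 0.00 and 0.18.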

How the data were processed

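Total RNA of whole colon was measured on 2 Agilent mouse arrays (SurePrint G3), 1 per genotype, and grouped by the labels. The authors deposited the scanner output of Feature Extraction (version 11.5.1.1 per the labels, 12.0.3.1 per the file headers). The intensity used here is the deposited processed signal, already background-subtracted by that software, with its flags as deposited. The authors' global scaling is not part of the deposited values and was repeated here: the mean of gene probes without 2% at each end (724 for Villin-Cre, 931 for EP4 cKO) was set to 2500. Control spots and outlier spots (147 and 126) were left out, spots of a probe were averaged, and 0 spots were saturated. Of the gene probes, 45.4% were well above background in Villin-Cre and 51.6% in EP4 cKO. Genes were named by RefSeq accession, and 32989 probes matched.

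Every member well above background on at least 1 array is named with its values. Of the other lists, genes past 2-fold are named, and always Nr1i2, Nr1i3, Ahr, Ppara, Por and Ptger4. Others named (Vdr, Alas1, Alox5, Alb, Itgam, Acta2, Actg2, Tagln and the marker genes not above background) were chosen after their values were seen. The members, lists and settings were chosen with earlier results of these data known. Alternatives were 4 scalings (75th percentile, trimmed mean over all spots, limma 3.58.1 normexp with offset 50 on the median signals followed by quantile normalization, and loess with span 0.3), the filter on dim probes, the choice of probe, thresholds of 1.5-fold and 3-fold, a wider membership rule and, added after the data were seen, 324 E1A control spots. Scripts ran in Python 3.11.15 (pandas 2.3.3, statsmodels 0.14.6, Biopython 1.88) and R 4.3.3, and were tested on simulated data. The number of arrays limits the precision.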

Additional observations from a re-analysis of the deposited data

Results flagged for a closer look

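Cyp2d37-ps, a pseudogene of the Cyp2d cluster that the membership rule leaves out, was well above background on both arrays, at 1516 in Villin-Cre and 2884 in EP4 cKO, a log2 ratio of 0.93. It is given because it is a signal outside the genes compared above, and whether its probe reads transcripts of the related Cyp2d genes was not tested. Cyp4f41-ps read 216 and 38.5, well above background in Villin-Cre only, with a bound of -1.90.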

How the results depend on the processing

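The count of members more than 2-fold higher, 2 as reported, was 5 under 75th percentile scaling, 4 with a trimmed mean over all spots, 6 after loess, 5 with no filter on dim probes, 9 at a 1.5-fold threshold, 1 at a 3-fold threshold and 20 under the E1A scaling. The count lower, 6 as reported, was 3 after normexp and quantile normalization, 29 with no filter, 11 at 1.5-fold, 2 at 3-fold and 1 under the E1A scaling. The median log2 ratio, 0 as reported, was 0.13 after normexp and quantile normalization, 0.27 after loess, -0.17 over probes on both arrays, -0.51 with no filter and 0.73 under the E1A scaling. Of the 8 members called, 7 were called under the 75th percentile and all-spot scalings, 6 after loess, 5 after normexp and 3 under the E1A scaling (Cyp2c55, Cyp4f14 and Cyp3a13). Without the filter, 34 members passed 2-fold, most of them undetected on both arrays. The shares of all genes called under each setting are given beside the members' counts above, and the E1A scaling called 29.5% of all genes higher. The cause of these shifts was not tested. Averaging all probes of a gene kept all 8 calls, and the wider membership rule kept them and added 1 lower, Cyp4f41-ps. No replicate could be left out with 1 array per genotype. No paired analysis was possible because each group has 1 array.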

Other observations

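P450 genes of families 5 to 51, which make and break down steroids, bile acids, retinoids and sterols, were read from a list of 21 genes. Of these, 9 had a value, 0 were more than 2-fold higher in EP4 cKO and 3 were lower, against 4.89% and 7.98% of all genes, with a median of -0.51. The lower ones were Ptgis, given above, Cyp27a1, the sterol 27-hydroxylase (468 in Villin-Cre and 197 in EP4 cKO, a ratio of -1.25), and Cyp46a1, the cholesterol 24-hydroxylase (588 and 283, a ratio of -1.05). Cyp17a1, which makes sex steroids and glucocorticoids, was bright in both colons, at 15641 and 10986, a ratio of -0.51. Cyp51, the lanosterol demethylase of cholesterol synthesis, read 8270 and 10519, a ratio of 0.35. Cyp17a1 and Cyp51 were chosen after their values were seen.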
